A study of Mus musculus with 9 samples.

Results

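Zscan4f3A overexpression was compared with control in 6 of the 9 RNA-seq libraries of the series, 3 per group, which were chosen by their labels alone. All 9 libraries came from total RNA of primary mouse embryonic fibroblasts of strain C57BL/6 labelled D4-OSKM-2ndMEFs. OSKM stands for Oct4, Sox2, Klf4 and Myc, the transcription factors used to reprogram somatic cells to pluripotency, and the control libraries carry that label too. No overexpression and no empty vector appear in the titles of the control libraries, so an effect of overexpression as such and an effect of Zscan4f3A cannot be told apart against control. The remaining group of 3, overexpression of Zscan4f, serves here only to test where the 2 forms differ. The sources used here do not give the meaning of D4, the sequence behind 3A, how the transcript was delivered, or whether each replicate was its own culture. The spread on which the p-values rest is that between these libraries and may be technical.

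Zscan4 proteins join a SCAN domain, through which proteins of this family pair with each other and with partners, to zinc fingers that bind DNA. In mouse they are known for brief expression in the 2-cell embryo and in a fluctuating minority of embryonic stem cells, where they have been linked to telomere maintenance. The series title ties the SCAN domain to Tet2, an enzyme that oxidises methylated cytosine in DNA. The comparison addresses which genes differ from control when the 3A form is overexpressed during reprogramming.

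Few genes were called against control with Zscan4f3A. Of 15837 genes tested with limma, 5 passed a Benjamini-Hochberg adjusted p of 0.05, which is 0.0316% of the genes. Zscan4f itself, Nudcd3 and Klk14 rose, and Emx2 and Igfbp3 fell. Genes were kept when they reached 1 TPM, a length-corrected expression value that sums to 1000000 in each library, in at least 3 of the 9 libraries. Differences were fitted on log2(TPM + 1), which understates the change of low genes. The median log2 difference over all genes tested was -0.012 and the median absolute difference was 0.088. In 96.9% of the genes the groups lay within 1.5-fold of each other. An unadjusted p under 0.05 was found for 602 genes on the higher side (3.8%) and 787 on the lower side (4.97%). Together these exceed the share of 0.05 expected on average if no gene differed, so genes that were not called may still differ.

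Zscan4f3A replicate 3 stood apart and is shown with and without in what follows. Its aligned sequence, estimated from the ratio of coverage to FPKM, was 3.31 gigabases, against 6.60 to 8.39 in the other 8 libraries. It was the highest or lowest of the 9 libraries for 32.3% of the genes tested, against 14.8% to 26.7% in the others. At a mean of 5 TPM or more (11532 genes), its value lay at least 1.5-fold above all 8 others in 185 genes and as far below in 66. The other libraries had between 18 and 29 such genes each, both directions together. Annotated pseudogenes made up 134 of those 185, although they are 331 of the 11532 genes (2.87%). The sources used here do not say whether this library was sequenced and processed like the others. The part of such a difference, or of the lower depth, in its lone values and in the values of 0 listed below was not tested, so a listed 0 in this library may not mean that a transcript was missing. Pseudogenes are copies of other genes that are not known to make a working protein. The median log2 difference of the 331 pseudogenes from the control mean was 0.41 in replicate 3 and 0.04 in replicates 1 and 2. Replicates 1 and 2 lay close to control in general: the median absolute log2 difference between them was 0.105, and between either of them and a control library it was 0.112 to 0.122. Control libraries differed from each other by 0.108 to 0.111. For replicate 3 the figure was 0.140 against the other Zscan4f3A libraries and 0.146 to 0.158 against control. Its spread from replicate 1 exceeded that of replicate 2 from replicate 1 also in genes at a mean of 50 TPM or more, at 0.089 against 0.055. Leaving it out raised the number of called genes to 16 (0.101%), 10 higher and 6 lower, among them the 5 named above.

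**Figure D1:**
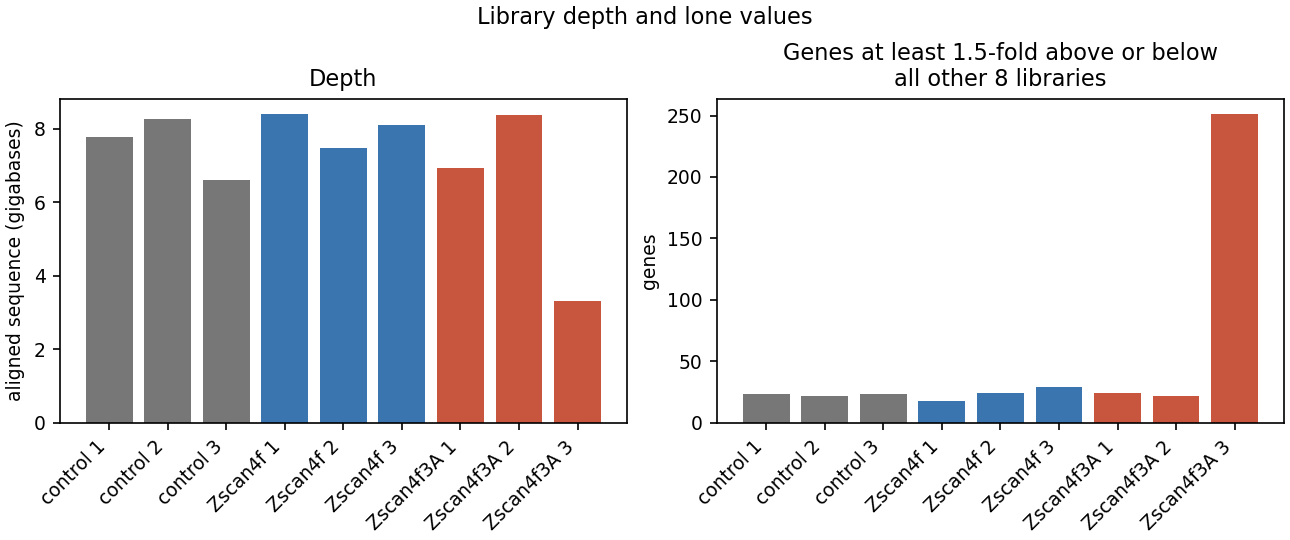
Left, aligned sequence per library in gigabases; right, number of genes (of 11532 with a mean of at least 5 TPM) whose value in that library was at least 1.5-fold above or below all other 8 libraries. Zscan4f3A replicate 3 has 3.31 gigabases and 251 such genes, and the other libraries have 18 to 29.

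Zscan4f (ENSMUSG00000070828.10, chromosome 7, 11397915 to 11402318 on GRCm38) is the check of the labels for overexpression against control. Its value cannot check which form was overexpressed, since the sequence behind 3A is not given. Nor does it separate overexpressed transcripts from those of the endogenous gene. Zscan4f stood at 0.330, 0 and 0.960 TPM in control and at 827, 836 and 654 TPM with Zscan4f3A. The 3 libraries of the group lay far above every control library, and replicate 3 was the lowest of them. The log2 difference was 9.13 (SE 0.21, adjusted p = 4.42e-07 by limma) and 9.24 without replicate 3 (adjusted p = 7.35e-07). In the Zscan4f libraries the same gene stood at 570.0, 565 and 558 TPM, below all 3 Zscan4f3A libraries. The difference between the forms did not pass the test, at a log2 difference of 0.44 (SE 0.21, adjusted p = 0.202).

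Zscan4f lies in a cluster of closely related copies, and signal was listed at other copies too. A stretch of 60 coding bases, numbers 636 to 695 from the start codon in the GENCODE M21 transcripts of GRCm38, is shown for 5 of them. It was chosen as the stretch of this length in which the copies shown together differ most from Zscan4f. Capitals mark the positions at which any of the 5 copies differs.
Zscan4f: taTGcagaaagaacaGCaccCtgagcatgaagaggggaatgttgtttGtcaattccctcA
Zscan4c: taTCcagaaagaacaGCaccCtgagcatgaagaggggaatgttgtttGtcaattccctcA
Zscan4d: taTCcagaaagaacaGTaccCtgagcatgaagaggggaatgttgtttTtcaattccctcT
Zscan4e: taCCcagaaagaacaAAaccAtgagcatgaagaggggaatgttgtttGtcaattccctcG
Zscan4-ps2: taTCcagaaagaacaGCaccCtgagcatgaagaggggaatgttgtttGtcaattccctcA
In this stretch Zscan4c and Zscan4-ps2 are identical to each other and each differ from Zscan4f at 1 base, Zscan4d at 4 and Zscan4e at 6. Over the 1518 coding bases of Zscan4f, Zscan4-ps2 differs at 4 (99.7% identity) and Zscan4c at 6 (99.6%). Of all windows of 100 bases in the Zscan4f coding sequence, 75.2% occur unchanged in Zscan4-ps2 and 68.7% in Zscan4c. In Zscan4-ps3 the share is 37.1%, and in Zscan4d, Zscan4e, Zscan4-ps1 and Zscan4b it is 21.4% to 25.7%. Reads from such windows cannot be assigned to 1 copy by sequence, so values of single copies are uncertain.

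In replicates 1 and 2 the copies closest in sequence to Zscan4f had the highest listed values after Zscan4f. Zscan4-ps2 (RP24-351P7.3 in the files) was listed at 0 in every control library and at 270.0, 271 and 274 TPM with Zscan4f3A, replicate 3 included. In the Zscan4f libraries it ranged from 0 through 29.2 to 167 TPM. It was not called in the fit of 9 libraries (adjusted p = 0.299 by limma), which shares 1 estimate of spread among the groups, and it was called when control and Zscan4f3A were fitted alone (adjusted p = 2.67e-08). Zscan4c stood at 188 and 191 TPM in replicates 1 and 2 of Zscan4f3A and was listed at 0 in replicate 3.

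Zscan4d (24.9 and 26.05 TPM), Zscan4e (35.2 and 38.3), Zscan4-ps1 (30.1 and 31.9) and Zscan4-ps3 (71.4 and 68.0) showed the same split, with replicate 3 listed at 0 in each. These 5 copies were called without replicate 3 (adjusted p from 1.7e-08 to 2.54e-07 by limma) and not with it (0.479 to 0.495). Zscan4a reached 17.0 TPM in replicate 2 alone, and Zscan4b stayed at or below 0.316 TPM in all 9 libraries. Summed over the 9 loci, the listed signal was 1448, 1480 and 928 TPM with Zscan4f3A, and at most 1.44 in control. In the Zscan4f libraries the sum was 951, 807 and 765 TPM, so the lowest Zscan4f3A library lay within the range of the Zscan4f group.

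**Figure D2:**
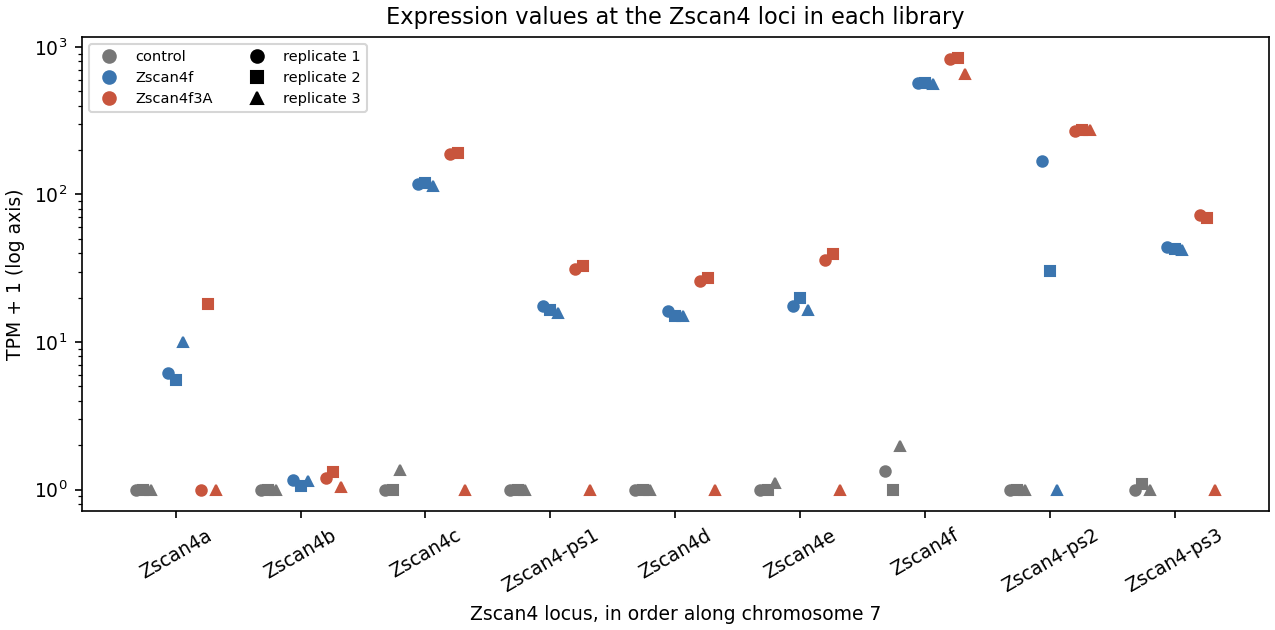
TPM plus 1 on a log axis at 9 loci of the Zscan4 cluster, 1 point per library, with colour for the group and shape for the replicate; a point at 1 is a listed value of 0. Zscan4f3A replicate 3 (triangle) lies with the other replicates at Zscan4f and Zscan4-ps2 and at 0 at Zscan4c, Zscan4d, Zscan4e, Zscan4-ps1 and Zscan4-ps3.

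Emx2, a homeobox transcription factor of forebrain and urogenital development, had the largest fall among the called genes. Emx2 (ENSMUSG00000043969.4, chromosome 19, 59458372 to 59465357) stood at 38.6, 40.7 and 39.6 TPM in control and at 23.2, 22.4 and 22.3 TPM with Zscan4f3A. The groups were far apart relative to the spread within each, and replicate 3 matched the others. The log2 difference was -0.78 (SE 0.06, adjusted p = 0.0042 by limma) and -0.77 without replicate 3 (adjusted p = 0.0076). With Zscan4f it stood at 16.4, 17.8 and 18.8 TPM, lower still, and the forms differed by 0.34 on the log2 scale (adjusted p = 0.00528). Without control replicate 3 the Emx2 call was just missed (adjusted p = 0.051).

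Nudcd3, a cochaperone of the NudC family that supports cytoplasmic dynein, had the largest rise after Zscan4f among the 5 called genes. Nudcd3 (ENSMUSG00000053838.14, chromosome 11, 6105691 to 6200415) stood at 33.7, 28.2 and 28.6 TPM in control and at 54.8, 56.2 and 55.9 TPM with Zscan4f3A. The log2 difference was 0.86 (SE 0.08, adjusted p = 0.0105 by limma) and the same without replicate 3 (adjusted p = 0.0205). The Zscan4f libraries, at 28.5, 33.1 and 29.96 TPM, lay at the control level. Among the called genes it was the one in which the 2 forms differed and the Zscan4f range overlapped that of control (0.85 between the forms, SE 0.08, adjusted p = 0.000282). The call was lost without control replicate 3 (adjusted p = 0.0621), without Zscan4f3A replicate 1 (0.0558) and without Zscan4f3A replicate 2 (0.0643). With no filter on low values the adjusted p was 0.0541.

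Klk14, a secreted serine protease of the kallikrein-related family, was higher by a small and even margin. Klk14 (ENSMUSG00000044737.6, chromosome 7, 43690418 to 43695536) stood at 71.6, 69.9 and 70.9 TPM in control and at 94.5, 92.0 and 90.8 TPM with Zscan4f3A. The log2 difference was 0.38 (SE 0.03, adjusted p = 0.0105 by limma) and 0.39 without replicate 3 (adjusted p = 0.00991). With Zscan4f it stood at 218, 226 and 227 TPM, and the forms differed by -1.26 (adjusted p = 4.93e-07). The call was narrowly lost without control replicate 3 (adjusted p = 0.0584), Zscan4f3A replicate 1 (0.0531) or Zscan4f3A replicate 2 (0.0552). It was also lost when control and Zscan4f3A were fitted alone (0.0687) and without the trended prior (0.0763).

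Igfbp3, a secreted protein that binds insulin-like growth factors, was the called gene with the smallest change. Igfbp3 (ENSMUSG00000020427.11, chromosome 11, 7206086 to 7213923) stood at 925, 931 and 913 TPM in control and at 759, 776 and 780 TPM with Zscan4f3A (means 923 ± 9.24 and 771 ± 10.9, SD, n = 3). The log2 difference was -0.26 (SE 0.03, adjusted p = 0.0179 by limma) and -0.27 without replicate 3 (adjusted p = 0.0113). With Zscan4f it stood at 453, 438 and 444 TPM, a difference between the forms of 0.79 (adjusted p = 1.73e-06). The Igfbp3 call was lost when any 1 of the control libraries was left out (adjusted p of 0.091, 0.0754 and 0.0833 for replicates 1, 2 and 3), and without Zscan4f3A replicate 1 (0.0873) or 2 (0.0963). It was also lost with no filter (0.0666), quantile normalization (0.234), control and Zscan4f3A fitted alone (0.103) and no trended prior (0.291).

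Outside the Zscan4 cluster, Mal, Gal3st4, Odr4 and Mtss1l were among the genes called only without replicate 3. Mal, a proteolipid of myelin and of apical membrane transport, stood at 157, 156 and 163 TPM in control and at 197, 196 and 182 TPM with Zscan4f3A. All 3 Zscan4f3A libraries were higher than control (log2 difference 0.27, adjusted p = 0.217 by limma; 0.31 and 0.0174 without replicate 3). With Zscan4f, Mal stood at 382, 371 and 376 TPM.

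Gal3st4, a sulfotransferase that acts on galactose, was at 3.83, 3.63 and 3.92 TPM in control and at 0.511, 0.722 and 4.61 TPM with Zscan4f3A. Here replicates 1 and 2 were low and replicate 3 was above every control library (adjusted p = 0.567 by limma with it, 0.0076 without).

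Odr4, which helps receptors leave the endoplasmic reticulum and is listed as AC121113.1 in the files, stood at 63.1, 67.6 and 57.3 TPM in control and at 35.3, 27.7 and 60.2 TPM with Zscan4f3A (adjusted p = 0.479 by limma with replicate 3, 0.0251 without). In Odr4 replicate 3 lay among the controls. Mtss1l, a protein that couples actin to curved membranes, stood at 17.5, 16.7 and 16.5 TPM in control, at 10.6, 10.5 and 16.0 TPM with Zscan4f3A and at 7.93, 7.91 and 7.93 TPM with Zscan4f. Its replicate 3 lay just below control (adjusted p = 0.455 by limma with it, 0.015 without), and the forms differed by 0.56 in all libraries (adjusted p = 0.0298).

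**Figure D3:**
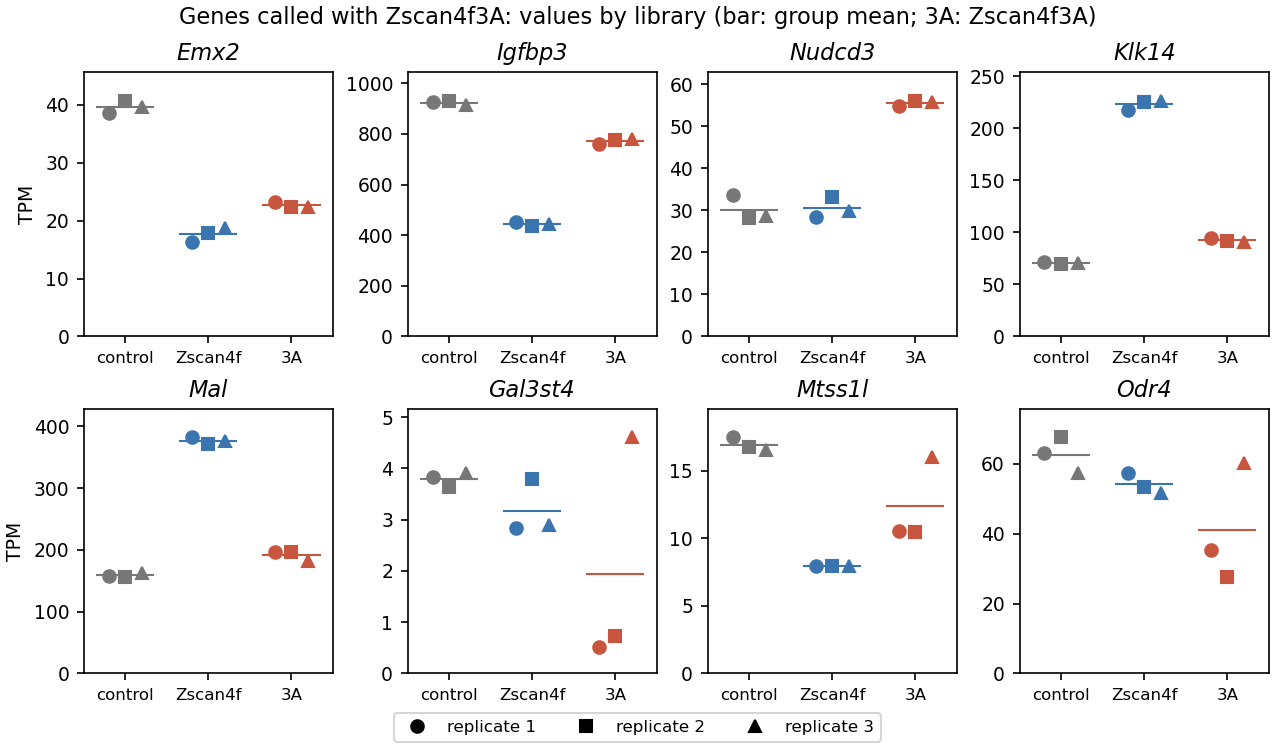
TPM in each library, on axes that start at 0, for 8 genes called with Zscan4f3A against control with or without replicate 3, with bars for group means. Replicate 3 (triangle) lies near replicates 1 and 2 in Emx2, Igfbp3, Nudcd3, Klk14 and Mal, and near the control values in Gal3st4, Mtss1l and Odr4.

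The position of replicate 3 was counted over all genes with a mean of at least 5 TPM. In 24 of 11532 such genes replicates 1 and 2 both lay at least 1.5-fold outside the control range, 15 above and 9 below. Replicate 3 did the same in 8 of the 24, and it lay inside the control range, widened by 10%, in 11 of them. The 11 include 5 Zscan4 copies listed at 0. Without a margin of fold, replicates 1 and 2 both lay above every control library in 1780 of the genes tested, and replicate 3 joined them in 996 (6.29% of 15837). They lay below every control library in 2273 genes and replicate 3 joined them in 1439 (9.09%). The genes in these counts were chosen by replicates 1 and 2, so replicate 3 would fall short in some of them by that choice alone. The same counts with another replicate held out were not made.

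**Figure D4:**
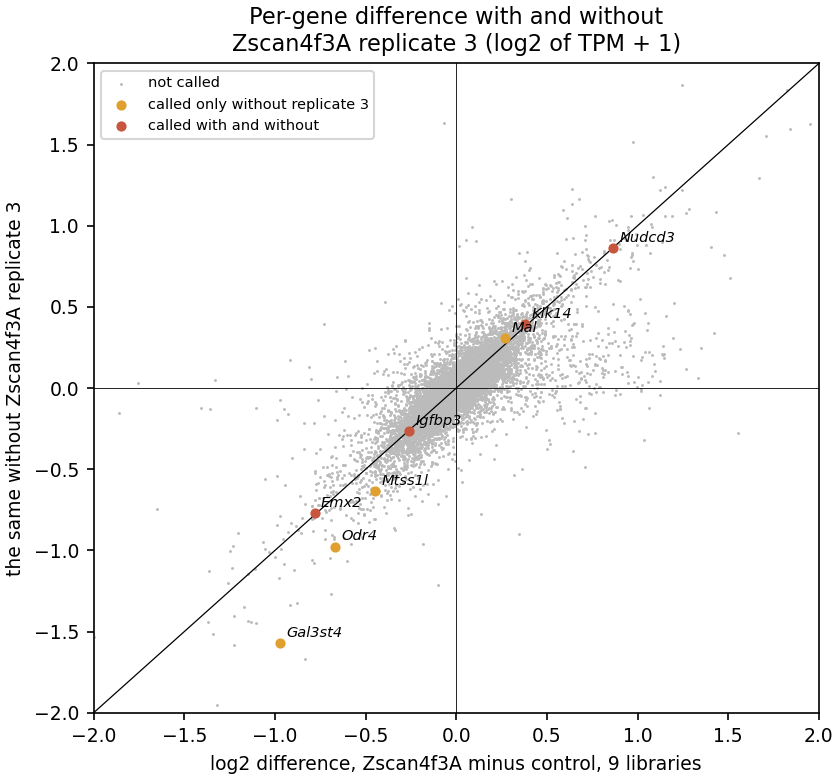
Log2 difference between Zscan4f3A and control per gene in the fit of 9 libraries (x axis) and without Zscan4f3A replicate 3 (y axis), for 15813 of 15837 genes; 22, Zscan4 copies among them, lie outside the axis range of 2, and 2 are not drawn. Emx2, Nudcd3, Klk14 and Igfbp3 lie on the diagonal, and Gal3st4, Odr4 and Mtss1l lie farther from 0 without replicate 3.

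Further genes that lay apart in all 3 libraries are given as values. The criteria were an unadjusted p under 0.05 with and without replicate 3, no overlap with control, and a mean of at least 5 TPM in the higher group. A total of 223 genes met them on the higher side and 354 on the lower side. The criteria do not leave out called genes: the 12 largest differences in each direction include Zscan4f, Nudcd3 and Emx2, described above, and the genes that follow were not called. Among the 12 largest positive differences, Rnf26, a ubiquitin ligase of the endoplasmic reticulum, stood at 0.903, 7.98 and 6.42 TPM in control and at 32.3, 33.0 and 10.1 TPM with Zscan4f3A. Usf3, a helix-loop-helix protein, was at 1.45, 0.694 and 1.60 TPM in control and at 10.98, 2.90 and 12.3 with Zscan4f3A. Both varied widely within a group. Traf3, an adaptor of tumour necrosis factor receptors, was tighter, at 8.61, 9.66 and 9.27 TPM in control and 18.9, 18.4 and 20.4 with Zscan4f3A. Sh3bp5l was at 12.4, 12.1 and 13.0 TPM in control and 26.3, 24.6 and 24.1 with Zscan4f3A, and Praf2 was at 69.1, 60.1 and 64.3 against 115, 129 and 108. The Zscan4f libraries split between these levels: 22.2, 21.4 and 10.5 TPM for Traf3, 13.4, 11.98 and 24.5 for Sh3bp5l, and 70.9, 70.5 and 132 for Praf2. In a fit of only control and Zscan4f3A, Sh3bp5l and Traf3 were called (adjusted p = 0.0107 and 0.0189 by limma).

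The remaining positive differences were smaller. Glrx, the cytosolic glutaredoxin, stood at 8.36, 7.18 and 6.83 TPM in control and at 13.8, 10.5 and 14.6 with Zscan4f3A. The forms differed for Glrx in the fit of 9 libraries (0.92 on the log2 scale, adjusted p = 0.0224 by limma) but not without replicate 3 (0.0635). Rab30, a small GTPase of the Golgi, stood at 11.4, 10.2 and 13.6 TPM against 16.1, 17.0 and 25.4. Arl5b, Zfp58 and Ccdc73 had log2 differences of 0.80, 0.74 and 0.69, from control levels of at most 4.94 TPM.

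On the lower side the largest difference was that of Ablim1, an actin-binding LIM protein, at 61.1, 61.1 and 57.0 TPM in control and 23.7, 22.3 and 56.8 with Zscan4f3A. Replicate 3 was thus barely below the lowest control, and Zscan4f replicate 3 was also at the control level, with 26.9, 25.1 and 59.0 TPM in that group. Sys1, a Golgi membrane protein, stood at 14.6, 17.6 and 19.3 TPM in control and 8.93, 11.1 and 8.47 with Zscan4f3A. Npnt, the matrix protein nephronectin, was at 59.1, 57.5 and 46.4 TPM in control, 31.8, 32.1 and 35.6 with Zscan4f3A, and 30.6, 37.2 and 29.6 with Zscan4f. For Npnt the 2 overexpression groups overlapped (log2 difference between the forms 0.04, SE 0.11). Rnf6, a ubiquitin ligase, stood at 54.5, 59.7 and 51.4 TPM in control and at 21.1, 48.8 and 31.6 with Zscan4f3A.

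Several of these genes lay between control and Zscan4f. Steap3, a ferrireductase of iron uptake, stood at 16.2, 15.9 and 14.7 TPM in control, at 11.7, 10.9 and 6.58 with Zscan4f3A and at 3.51, 3.29 and 3.21 with Zscan4f. Islr, a secreted protein of stromal cells, was at 6.87, 7.29 and 7.24 TPM in control, 3.91, 3.84 and 4.97 with Zscan4f3A, and 0.388, 0.318 and 0.700 with Zscan4f. The forms differed by 1.27 for Steap3 and 1.84 for Islr (adjusted p = 0.00185 and 6.83e-05 by limma). Vat1l was at 7.22, 7.002 and 7.11 TPM in control and 4.38, 3.90 and 3.59 with Zscan4f3A, and its forms differed by 0.64 (adjusted p = 0.0273). Senp8, Wars2, Afmid and Zfp568 were not of this kind, since their Zscan4f3A means lay below those of both other groups. Senp8 cleaves NEDD8, Wars2 is the mitochondrial tryptophanyl-tRNA synthetase, and Afmid is an enzyme of tryptophan breakdown. Their log2 differences from control, with Zfp568 last, were -0.79, -0.79, -0.72 and -0.70. In Zfp568 the Zscan4f values of 19.9, 20.1 and 19.2 TPM fell inside the control range, 13.3 to 23.5. The forms differed by -0.735 for Zfp568 in the fit of 9 libraries (adjusted p = 0.0321 by limma), and this was lost without replicate 3 (0.0546).

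None of the 4 reprogramming factors was called against control (0 called, adjusted p of 0.645 or more by limma). Sox2 stood at 612, 547 and 564 TPM in control and at 553, 586 and 607 with Zscan4f3A, with overlap. With Zscan4f it was at 492, 445 and 478 TPM, and the forms differed by 0.30 (adjusted p = 0.00801 by limma). Klf4 was at 317, 259 and 282 TPM in control and 307, 302 and 268 with Zscan4f3A. Myc was at 54.3, 55.8 and 57.3 TPM in control and 69.97, 61.3 and 52.9 with Zscan4f3A, so replicates 1 and 2 lay above control and replicate 3 below it. Pou5f1, which encodes Oct4, stood at 15.95, 13.5 and 18.0 TPM against 13.9, 13.7 and 13.5. The files do not separate transcripts of the reprogramming factors from those of the endogenous genes.

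Of 28 reprogramming factors and pluripotency genes, 9 passed the filter on low values and 0 were called. Of the 9, 3 lay above every control library (33.3%, against 6.29% of all genes tested) and 0 below (against 9.09%). The 3 were Tbx3 and the epithelial markers Epcam and Cdh1, and no reprogramming factor was among them. Cdh1 stood at 14.2, 14.2 and 13.8 TPM in control and at 14.3, 15 and 15.7 with Zscan4f3A. Tbx3 stood at 9.61, 10.2 and 9.95 TPM in control and at 11.1, 10.3 and 12.2 with Zscan4f3A. Nanog, a homeobox gene of the pluripotent state, reached at most 0.421 TPM in control and 0.525 with Zscan4f3A. Dppa3, Dppa5a and Tdgf1 were listed at 0 in all 9 libraries. Of 21 genes of the 2-cell stage found in the files, 9 were listed at 0 in all 9 libraries, Tcstv1, Tcstv3 and Duxf3 among them. The 1 that passed the filter, Ddit4l, an inhibitor of mTOR signalling, stood at 28.2 ± 2.45 TPM in control and 25.8 ± 2.13 with Zscan4f3A (SD, n = 3, adjusted p = 0.734 by limma).

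Tet2 was lower in all 3 Zscan4f3A libraries without passing the test. It stood at 27.2, 31.6 and 26.03 TPM in control, at 22.7, 23.6 and 21.3 with Zscan4f3A and at 18.9, 20.4 and 18.6 with Zscan4f. The log2 difference was -0.31 (SE 0.08, adjusted p = 0.396 by limma; 0.539 without replicate 3), and that between the forms was 0.21 (SE 0.08, adjusted p = 0.116). Tet3 was at 24.3, 22.7 and 23.4 TPM in control against 23.9, 21.9 and 23.4, and Tet1 was at or below 3.65 TPM in every library of both groups. Cxxc5, a CXXC zinc finger protein, stood at 9.91, 10.7 and 9.41 TPM in control, 7.49, 8.09 and 8.32 with Zscan4f3A and 4.33, 5.23 and 4.76 with Zscan4f (0.64 between the forms, adjusted p = 0.00186). Of 25 genes of DNA methylation and Tet enzymes tested, 0 were called, 4 lay below all controls (16%) and 1 above (4%), with a median log2 difference of -0.06. Over all genes tested, 9.09% lay below and 6.29% above every control library, and 0.0316% were called.

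In the telomere list 0 of 21 genes were called, 2 lay above and 2 below every control library (9.52% each), and the median was 0.02. These shares are near those over all genes tested, 6.29% above and 9.09% below. Dkc1, the pseudouridine synthase dyskerin of the telomerase particle, had the smallest p of the list. It stood at 24.1, 22.8 and 22.9 TPM in control and at 28.8, 28.2 and 32.1 with Zscan4f3A (log2 difference 0.34, adjusted p = 0.299 by limma). The Zscan4f libraries held 32.3, 30.7 and 28.4 TPM. Among 31 tested SCAN domain genes outside the cluster 0 were called, 5 lay below every control library (16.1%) and 0 above. Zscan25, the one with the smallest p, was at 29.1, 29.6 and 30.5 TPM in control against 24.4, 23.6 and 25.8 with Zscan4f3A (log2 difference -0.26, adjusted p = 0.455 by limma). Scand1, a SCAN protein without zinc fingers, had the lowest difference of the list, -1.11, but varied from 28.7 to 62.1 TPM in control and from 14.6 to 31.5 with Zscan4f3A.

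Other pathways are described by counts over their tested members, to be read against 6.29% of all genes above and 9.09% below every control library. These lists were chosen with earlier results of these data known. The 5 called genes fell in 5 of the 42 lists: the Zscan4 cluster, kallikreins, IGF genes, non-Hox homeobox genes, and NudC and dynein cofactors. Of 6 kallikrein-related peptidases, 1 was called and 3 lay above all controls. Klk10 stood at 26.7, 26.4 and 27.6 TPM in control and 33.8, 33.8 and 33.4 with Zscan4f3A (0.31 on the log2 scale, adjusted p = 0.217 by limma). With Zscan4f it stood at 128, 140.4 and 141 TPM, a difference between the forms of -1.99 (adjusted p = 4.93e-07).

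Of 29 epithelial junction genes and regulators, 0 were called, 7 lay above all controls and 1 below, with a median of 0.09. Krt8, a keratin of simple epithelia, stood at 21.4, 19.0 and 20.3 TPM in control and 23.3, 23.6 and 24.9 with Zscan4f3A, while the Zscan4f libraries held 76.4 to 80.0. Epcam, an epithelial adhesion molecule, was at 0.987, 1.27 and 1.88 TPM against 2.16, 2.06 and 2.41, with 5.92 to 7.25 in the Zscan4f group. Of 16 keratins and genes of stratified epithelium 4 lay above and 1 below. Krt14 of the basal epidermis stood at 27.0, 29.6 and 28.8 TPM in control and 34.3, 35.6 and 37.8 with Zscan4f3A. The forms differed for each of these 3 genes (Krt8 by -1.67, Epcam by -1.23 and Krt14 by -1.23, adjusted p of at most 0.00105 by limma). Other epithelial genes went the other way. Krt5 stood at 1.17, 1.41 and 1.16 TPM in control and 0.990, 0.971 and 0.868 with Zscan4f3A. Grhl1 stood at 1.39, 1.36 and 1.43 TPM in control and 1.00, 1.07 and 1.04 with Zscan4f3A.

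Of 41 collagens and fibroblast genes, 0 were called, 16 lay below all controls and 4 above, with a median log2 difference of -0.05 (-0.03, -0.04 and -0.06 in replicates 1, 2 and 3). The differences were small: Nid1, the basement membrane protein nidogen, stood at 352, 354 and 349 TPM in control and 319, 321 and 312 with Zscan4f3A. Loxl1, a lysyl oxidase of elastic fibres, was at 165, 167 and 161 TPM against 137, 142 and 146, and Cdh2, N-cadherin, at 131, 127 and 126 against 119.6, 118 and 111. Col1a2 went the other way, at 4336, 4282 and 4161 TPM in control against 4447, 4377 and 4509. The summed level of the list was 32200 to 32600 TPM in control and 32000 to 32700 with Zscan4f3A.

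In the IGF list, where Igfbp3 was called, 7 of 20 genes lay below all controls and 2 above. Igfbp6 was on the higher side, at 457, 427 and 429 TPM in control and 477, 458 and 486 with Zscan4f3A. In the TGF-beta and BMP list 0 of 33 were called, 7 lay below and 1 above. Smad3, a signal carrier of TGF-beta, was at 32.1, 32.7 and 33.3 TPM against 28.7, 26.9 and 29.6, and Tgfb2, a ligand, at 33.4, 31.2 and 32.4 against 28.2, 29.0 and 28.4. In the list of homeobox genes outside the Hox clusters, where Emx2 was called, 8 of 45 lay below and 1 above. Pitx1, a factor of hindlimb and pituitary development, stood at 10.8, 10.5 and 9.74 TPM in control against 12.5, 14.4 and 13.6.

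Interferon response genes had 7 of 31 members above all controls and 2 below, 0 called, and a median of 0.08. Ifi27 stood at 102, 106.5 and 104 TPM in control and 123, 120.0 and 116 with Zscan4f3A (log2 difference 0.20, adjusted p = 0.299 by limma). In the Zscan4f libraries it was lower than in both, at 93.8, 94.9 and 92.9, and the forms differed by 0.35 (adjusted p = 0.000461). H2-K1, a class I histocompatibility chain, was at 39.4, 47.0 and 43.9 TPM against 50.8, 54.3 and 61.6.

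Lists of general metabolism and growth lay near 0. In the glycolysis, cholesterol synthesis and proteasome lists 0 of 24, 26 and 32 members were called, and the medians were 0.05, 0.02 and 0.01. Nuclear genes of oxidative phosphorylation had a median of 0.00 over 53, cytosolic ribosomal proteins of -0.01 over 77, and p53 targets of 0.02 over 27. Contractile genes had a median of -0.01 over 26. The mitosis list was at -0.05 over 35, with 5 below all controls, and DNA replication genes at -0.01 over 34. Ccnd2, a D-type cyclin of entry into S phase, had the smallest p of the mitosis list, at 454, 447 and 447 TPM in control, 416, 409 and 409 with Zscan4f3A and 303, 293 and 292 with Zscan4f (log2 difference from control -0.13, adjusted p = 0.299 by limma).

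Among members of smallest p in further lists, Egln3, Sfrp1 and Egr1 showed small, even differences. Not all such members did: Hspb1 of the heat shock list stood at 130, 201 and 188 TPM in control and 110, 136 and 123 with Zscan4f3A, with overlap. Egln3, a prolyl hydroxylase that marks hypoxia-inducible factors for decay, stood at 42.0, 40.05 and 41.4 TPM in control and 48.4, 47.6 and 46.2 with Zscan4f3A. The Zscan4f libraries held 83.0 to 86.2 TPM, and the forms differed by -0.83 (adjusted p = 8.19e-06 by limma). Sfrp1, a secreted inhibitor of Wnt ligands, stood at 43.6, 46.1 and 46.6 TPM in control and 51.4, 52.6 and 51.1 with Zscan4f3A, against 68.1 to 69.5 with Zscan4f (-0.41 between the forms, adjusted p = 0.000374). Egr1, an immediate early factor, was at 38.0, 40.1 and 39.8 TPM against 34.9, 34.8 and 33.7. None of Egln3, Sfrp1 and Egr1 was called against control (adjusted p of 0.299, 0.317 and 0.392 by limma), although in each of them the Zscan4f3A and control libraries did not overlap.

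Cox7b did not lie between control and Zscan4f. Cox7b, a subunit of cytochrome c oxidase, stood at 147, 150.5 and 158 TPM in control, 136, 133 and 132 with Zscan4f3A, and 159 to 164 with Zscan4f (adjusted p = 0.299 against control and 0.00184 between the forms by limma).

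**Figure D5:**
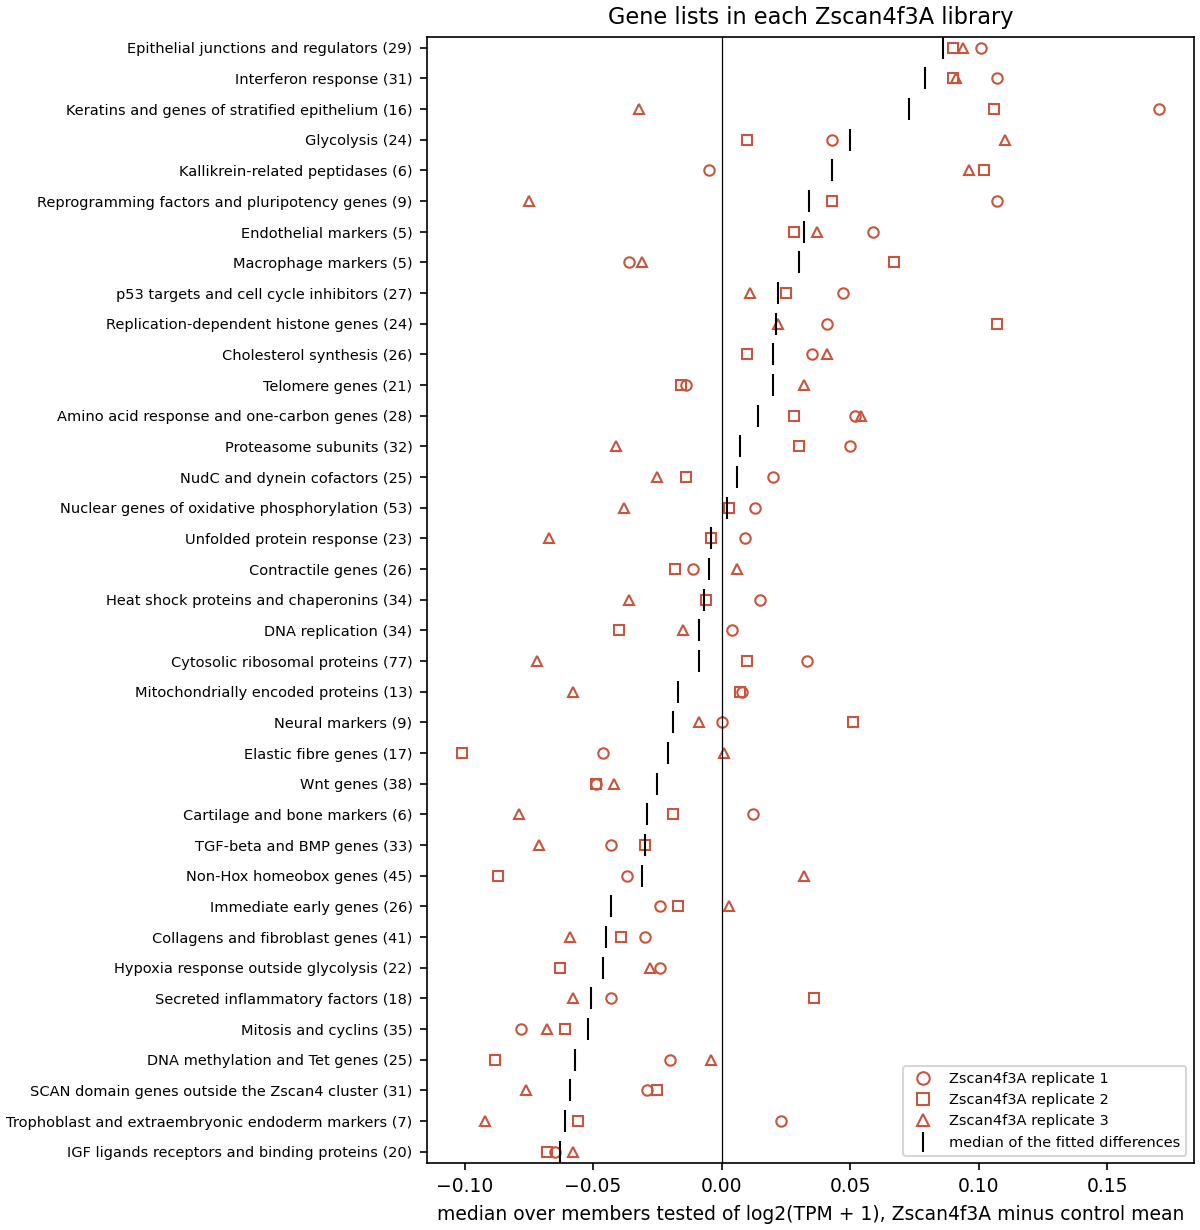
Median over tested members (number in brackets) of the log2(TPM + 1) difference from the control mean for each gene list with at least 5 tested members, apart from the Zscan4 cluster, 1 symbol per Zscan4f3A library and a black bar for the median of the fitted differences. The medians of single libraries lie between -0.101 and 0.170; epithelial junction and interferon genes are above 0 in all 3 libraries while collagen, IGF and mitosis genes, among others, are below 0 in all 3.

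Fibroblast markers such as Thy1 and Prrx1 were high in both groups, but not every marker was. Fap stood at 1.04 to 1.49 TPM in control and 0.327 to 1.39 with Zscan4f3A, and Tcf21 was listed at 0 in all 9 libraries. Thy1, a surface protein of fibroblasts, stood at 219 to 225 TPM in control and 219 to 227 with Zscan4f3A, and Prrx1, a mesenchymal homeobox factor, at 131 to 138 and 123 to 129. Markers of other cells were mixed. Ptprc, the pan-leukocyte CD45, did not exceed 0.0843 TPM, Cdh5 of endothelium did not exceed 0.0496, and Myod1 of muscle was listed at 0 in all 9 libraries. Other members of the same lists were well above 0 in both groups. Stmn2 and Gap43, known from growing neurons, stood at 555 to 560.0 and 192 to 204 TPM in control and at 538 to 557 and 190.0 to 195 with Zscan4f3A. Tek, an endothelial receptor, stood at 29.5 to 31.8 TPM in control and 31.0 to 32.2 with Zscan4f3A, and Cd68, of macrophages, at 11.3 to 13.1 and 11.7 to 13.5. Adipoq of fat cells was listed at 0 in all 3 Zscan4f3A libraries and at 0, 0.396 and 0 TPM in control, and it did not pass the filter. Of the marker lists of neural, endothelial, macrophage, muscle and fat cells, 0 genes were called. The summed level was 981 to 996 TPM in control and 979 to 998 with Zscan4f3A for neural markers, 78.6 to 82.4 and 79.5 to 83.3 for endothelial, and 21.2 to 24.4 and 21.2 to 23.0 for macrophage markers. It was 23.4 to 26.5 and 25.6 to 31.3 TPM for muscle markers and 13.7 to 17.0 and 12 to 13.7 for fat cell markers. In bulk samples, fewer cells of a type and less RNA per cell cannot be told apart.

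Short noncoding RNAs varied widely between libraries of a group. Rn7s1, an RNA of the signal recognition particle, stood at 32.1, 51.5 and 30.4 TPM in control and 53.2, 117 and 118 with Zscan4f3A. The mitochondrial gene mt-Atp6 ranged from 5812 to 10010 TPM within control and from 9465 to 9947 with Zscan4f3A, against 1740 to 1748 with Zscan4f. All mitochondrially encoded protein genes together held 9.025% to 9.671% of TPM in control, 9.182% to 9.582% with Zscan4f3A and 8.741% to 8.789% with Zscan4f. Whether library preparation had a part in the short RNA values was not tested.

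Between the 2 forms, 2395 genes differed in the same limma fit (15.1%), 1210 higher and 1185 lower with Zscan4f3A, and 1987 without replicate 3. Of the 2395 genes, the Zscan4f3A libraries overlapped control in 1740 (72.7%, against 84.6% of all genes tested). They lay above all controls in 247 and below in 408. Over the 2395 genes the median absolute log2 difference of Zscan4f3A was 0.08 from control and 0.40 from Zscan4f; the genes were chosen by the latter difference. Libraries of Zscan4f3A replicates 1 and 2 differed from Zscan4f libraries by a median of 0.170 to 0.175 over all genes tested, and from control libraries by 0.112 to 0.122.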

How the data were processed

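Total RNA of 9 libraries was sequenced. Per the submitters' processing notes, the authors used HISAT2 2.1.0 and StringTie. Build and annotation are not given in the sources used, but 54079 of 54986 gene IDs were found in GENCODE M21 (GRCm38), 97.7% of them with the same coordinates. The TPM, FPKM and coverage values are as the authors deposited them. No counts were used, so the depth behind a single value is unknown. Coverage divided by FPKM gave the aligned sequence per library, 3.31 to 8.39 gigabases.

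Rows of one gene ID were summed (15 IDs had several), and the 15837 genes that reached a TPM of 1 in 3 or more libraries were kept. Limma 3.58.1 in R 4.3.3 was fitted to log2(TPM + 1) with group means over all 9 libraries and a trended prior, two-sided, with calls at 0.05 after Benjamini-Hochberg adjustment over the whole table. The same fit gave Zscan4f3A against Zscan4f, and both were repeated without Zscan4f3A replicate 3. Identical values were found in 0 of 36 library pairs. Lists were described without a set test. The code was tested on simulated data. Coding sequences were aligned with Biopython 1.88 in Python 3.11.15. Figures used pandas 2.3.3, numpy 2.4.6 and matplotlib 3.10.9.

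Named were genes called with or without replicate 3, the 12 largest differences in each direction by the criteria in the text, Zscan4, Tet and reprogramming genes, list members of smallest p, and list members listed at 0. Further genes of the lists, such as Col1a2, Thy1 and Nanog, were named after their values were seen, as were the counts of lone values, of pseudogenes and of the position of replicate 3. Some genes that met this rule are not reported here. The members and lists were chosen with earlier results of these data known. Alternatives were the pseudocount (0.1), filters, FPKM, scalings, fits, weights, the replicate block and each library left out.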

Additional observations from a re-analysis of the deposited data

Results flagged for a closer look

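For 6 genes called against control, with or without Zscan4f3A replicate 3, the test of the difference between the forms passed in the fit of 9 libraries. The log2 difference of Zscan4f3A minus Zscan4f was -1.26 for Klk14, -0.97 for Mal, 0.34 for Emx2, 0.79 for Igfbp3, 0.56 for Mtss1l and 0.85 for Nudcd3 (adjusted p from 4.93e-07 to 0.0298 by limma). In Klk14, Mal, Emx2, Igfbp3 and Mtss1l the mean with Zscan4f3A lay between those of control and Zscan4f. In Nudcd3 the Zscan4f libraries lay at the control level and the Zscan4f3A libraries above both.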

How the results depend on the processing

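Of 21 alternatives, Zscan4f was called against control in 21, Emx2 in 19, Nudcd3 in 16, Klk14 in 15 and Igfbp3 in 11, all with unchanged direction. Against 5 genes, 3 were called with no filter, 3 at a fold change of at least 1.5 and 1 with the replicate block, where adjusted p was 0.067 for Emx2 and 0.15 for Klk14 and Nudcd3. The same replicate numbers of control and Zscan4f3A correlated at 0.051, 0.053 and 0.036, each library best with its own number, which is a hint from the data and too weak to pair them. Leaving out 1 library in turn gave 1 to 16 called genes, with 1 without control replicate 3, 8 without control replicate 1, 9 without control replicate 2, 10 without Zscan4f replicate 3 and 16 without Zscan4f3A replicate 3. The other alternatives gave 4 to 7. For Zscan4f3A against Zscan4f, leaving out 1 library gave 1574 to 2168 genes, with 1574 without Zscan4f replicate 3, and a fold of at least 1.5 gave 657. Small differences turned sign when 1 library was left out: Klf4 (range -0.035 to 0.112) to -0.035 without control replicate 2 and -0.002 without Zscan4f3A replicate 1, Tet3 (-0.051 to 0.012) without Zscan4f3A replicate 2, Tet1 (-0.313 to 0.156) to 0.071 without control replicate 1 and 0.156 without Zscan4f3A replicate 1, and Sox2 to -0.014 without control replicate 2 and -0.01 without Zscan4f3A replicate 3. Zscan4a ranged from 0, without Zscan4f3A replicate 2, to 2.085. The cause was not tested. With no counts and 3 libraries a group, small differences of low genes could not be detected.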
